A study of Rattus norvegicus with 196 samples.

Results

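Htr1a encodes a serotonin receptor that was followed here across 25 brain regions of rats that had received fluoxetine or water. It was taken as the transcript that the study's name table calls Htr1a, ENSRNOT00000013618, which is 1 of the 29188 transcripts counted in every library. The FT group consisted of male Long-Evans rats, 2 months old, that received fluoxetine at 18 mg/kg in their drinking water for 6 weeks, and the Sham group received water alone. The methods describe naive animals, and those used for sequencing took no behavioural tests. The 98 FT and 98 Sham libraries each pooled punches from 10 of the 40 animals in a group. A library is therefore a pool rather than an animal, and libraries of different regions with the same replicate number draw on shared pools. The replicates carried the numbers 1, 3, 4 and 5, and the FT and Sham samples of a number were processed side by side, so they are treated as pairs.

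The protein made from Htr1a is a receptor coupled to inhibitory G proteins, which lowers adenylyl cyclase activity and opens inwardly rectifying potassium channels. On the cell bodies and dendrites of serotonin neurons in the raphe it acts as an autoreceptor that restrains firing and serotonin release. On neurons of the hippocampus, septum, amygdala and cortex, which receive serotonin fibres, it acts as a postsynaptic receptor. Fluoxetine blocks the serotonin transporter and so raises the serotonin that reaches both kinds of site.

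Htr1a gave few reads, which sets the precision of everything that follows. Libraries held between 4586 and 50893913 counts on transcripts and the median library had 4.5 Htr1a reads. The highest was 294 reads, and 25 libraries had none, 7 of them Sham and 18 FT. A library without a read still allows up to 3 reads, which was 0.196 CPM in the median library. CPM here are read counts scaled to the size of the library, corrected by TMM factors over all 196 libraries. Libraries of replicate 3 stood apart, as their 50 most abundant transcripts took a median of 67.7% of the counts in FT and 68.6% in Sham, against 28.2% to 37.5% in the other replicates. A single read there was worth more CPM than in most other libraries, so values are best read within a replicate number. The CGC pair of replicate 1, which the study set aside as an outlier, was left out of all fits. Nts Sham replicate 3, with 4586 counts, and ILC Sham replicate 3, with 543403, had 0 Htr1a reads each and could not show the transcript at their depth.

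In the Sham brain Htr1a was highest in the dorsal dentate gyrus (dorDG), at 9.48 ± 5.38 CPM (SD, n = 4). The values there were 7.21 CPM in replicate 1, 15.97 in replicate 3, 3.45 in replicate 4 and 11.28 in replicate 5, from 94, 57, 158 and 294 reads. The dorDG ranked above every other region in each of the 4 Sham replicates. The ventral dentate gyrus (venDG) followed with 4.13 ± 3.58 CPM (SD, n = 4), but its replicates spread from 0.323 to 8.63 CPM. The raphe, home of the autoreceptor, had 3.02 ± 1.72 CPM (SD, n = 4), with single values of 3.28, 4.99, 3.02 and 0.793 in replicates 1, 3, 4 and 5. The lateral septum (LS) had 2.81 ± 1.77 CPM and the medial septum (MS) 2.38 ± 2.66 CPM (SD, n = 4 each). These 5 regions were followed by the centromedial amygdala (CMA) at 1.64 ± 1.61 CPM and CGC, the cingulate cortex, at 1.60 ± 2.46 CPM (SD, n = 4 and 3).

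**Figure D1:**
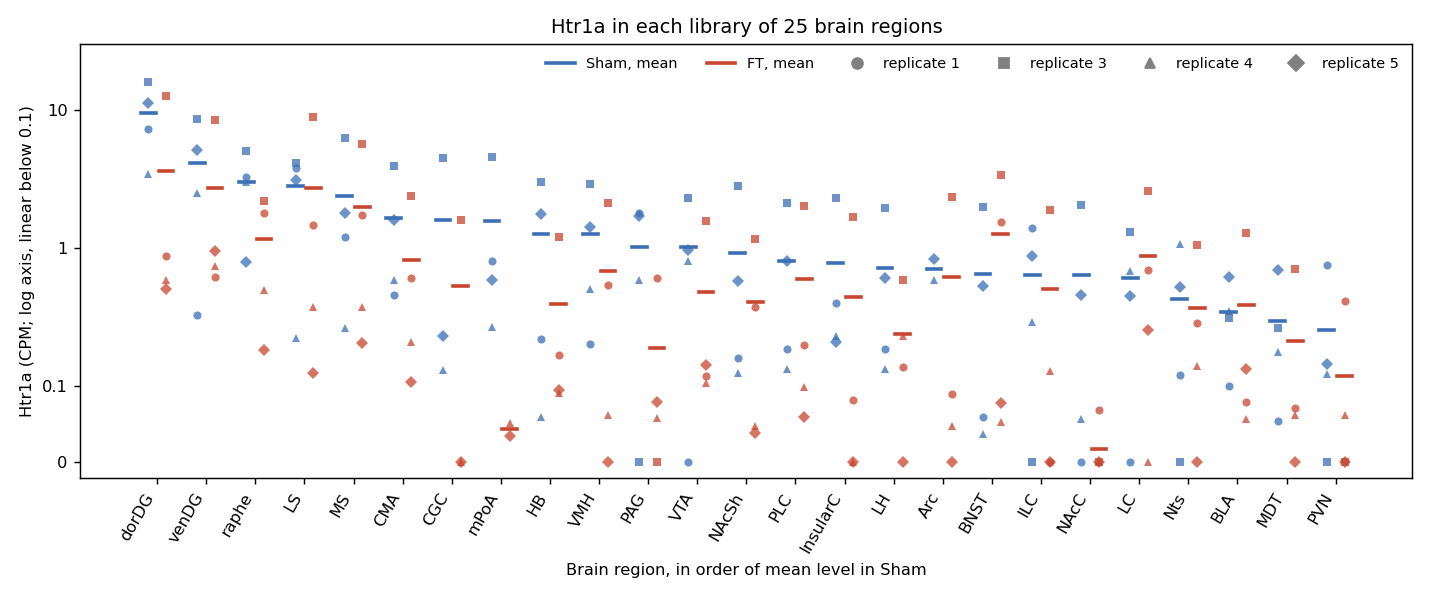
Htr1a in CPM on a log axis that turns linear below 0.1, for each library of the 25 regions, with Sham in blue and FT in red; marker shapes give the replicate number and bars the group means. The dorDG lies highest in Sham with a mean of 9.48 CPM, and replicate 3 gives the highest point of 39 of the 48 groups that have it.

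Below these the levels ran down in small steps. The medial preoptic area (mPoA) had 1.55 ± 2.01 CPM, the habenula (HB) 1.26 ± 1.39, the ventromedial hypothalamus (VMH) 1.25 ± 1.21 and the periaqueductal grey (PAG) 1.02 ± 0.876 (SD, n = 4 each). The ventral tegmental area (VTA) followed at 1.01 CPM, the shell of the nucleus accumbens (NAcSh) at 0.918, the prelimbic cortex (PLC) at 0.808, the insular cortex (InsularC) at 0.782, the lateral hypothalamus (LH) at 0.720, Arc at 0.704 from 2 libraries and BNST at 0.650. The lowest means were 0.638 CPM in the infralimbic cortex (ILC), 0.635 in the core of the accumbens (NAcC), 0.603 in LC, 0.426 in the nucleus tractus solitarius (Nts), 0.343 in the basolateral amygdala (BLA), 0.297 in the dorsomedial thalamus (MDT) and 0.254 in the paraventricular nucleus (PVN). The locus coeruleus (LC), a noradrenergic nucleus, ranked 21st where the raphe ranked 3rd.

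Region made a difference to Htr1a in Sham as a whole. The edgeR test of region over 97 Sham libraries gave an F of 7.38 and an adjusted p of 3.57e-11, at a background of 75.6% of transcripts called. Adjacent regions in the order could not be told apart, however. The ranges of all 24 neighbouring pairs overlapped, and edgeR called none of them. The lowest adjusted p was 0.295, and 1 pair, dorDG and venDG, had an unadjusted p under 0.05. The dorDG exceeded the venDG by a log2 difference of 1.32 (SE 0.63, adjusted p = 0.429), in a contrast that called 2.67% of transcripts. Within replicates the dorDG was higher in 4 of 4, by ratios of 1.39 to 22.3, a count whose share over all transcripts was not computed. The ratio of 22.3 rests on 3 venDG reads in replicate 1.

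Set against the raphe, 16 of the 24 other regions had less Htr1a. They were CMA, CGC, mPoA, HB, VMH, NAcSh, PLC, InsularC, LH, BNST, ILC, NAcC, LC, BLA, MDT and PVN, with log2 differences from -1.54 in CMA to -3.66 in NAcC and adjusted p from 0.000434 to 0.0812. The same contrasts called between 4.35% of transcripts lower than in the raphe, in LC, and 23.5%, in PLC, with 5.05% in LH. The dorDG had a log2 difference from the raphe of 1.28 (SE 0.64, adjusted p = 0.107). It was higher in 4 of 4 replicates, again without a share over all transcripts. For venDG the difference was -0.04 (SE 0.57), for LS -0.31 (SE 0.65) and for MS -1.14 (SE 0.68), none of them past the threshold, with 14.9% of transcripts called lower in LS. PAG (-1.37, adjusted p = 0.250), VTA (-1.78, 0.188), Arc (-1.90, 0.148) and Nts (-2.09, 0.425) did not pass it either, in contrasts that called 6.07%, 2.29%, 11.9% and 0.878% lower. With no term for the replicate number, none of the regions passed against the raphe. Without replicate 4, 9 did.

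The labels could be checked against only some markers of cell types, because names were at hand for a small share of transcripts. Camk2a and Nrgn, genes of excitatory forebrain neurons, had their highest Sham means in dorDG, at 138 and 1092 CPM. Th and Slc6a3, the rate-limiting enzyme of catecholamine synthesis and the dopamine transporter, were highest in VTA, at 299.8 and 72.4 CPM. For serotonin neurons and dentate granule cells 0 of 7 and 0 of 5 markers had an identifier, so neither label was checked in that way.

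With fluoxetine the mean level of Htr1a was lower in 22 of the 25 regions, a count whose share over all transcripts was not computed. These means weigh replicate 3 heavily, join unmatched replicates in Arc and mPoA, and come from regions that share pools. By a related measure such runs are common, as 11.8% of 11365 transcripts had a negative log2FC in at least 22 of 25 regions. By pair Htr1a was lower in FT in 69 of 95, a count whose share was not computed either. It was lower in 24 of 45 in replicates 1 and 3 and 45 of 50 in replicates 4 and 5. At least as many of those 50 were lower for 9% of transcripts. Of the 9 regions where Htr1a passed the low-count filter, edgeR gave a negative log2FC in 8 and called it lower in 3, Arc, mPoA and raphe, at an adjusted p of at most 0.1 and a fold of at least 1.25. In mPoA it passed the filter through Sham libraries alone, which favours a fall there. Among the 11871 transcripts tested in the same 9 regions, 1.37% were called lower in at least as many and 18.7% were negative in at least as many. The study chose the transcripts it named by their calls on these samples, Htr1a among them, so a fall is not independent evidence of its direction. In bulk tissue, fewer cells that express the receptor and less of its RNA per cell cannot be told apart.

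**Figure D2:**
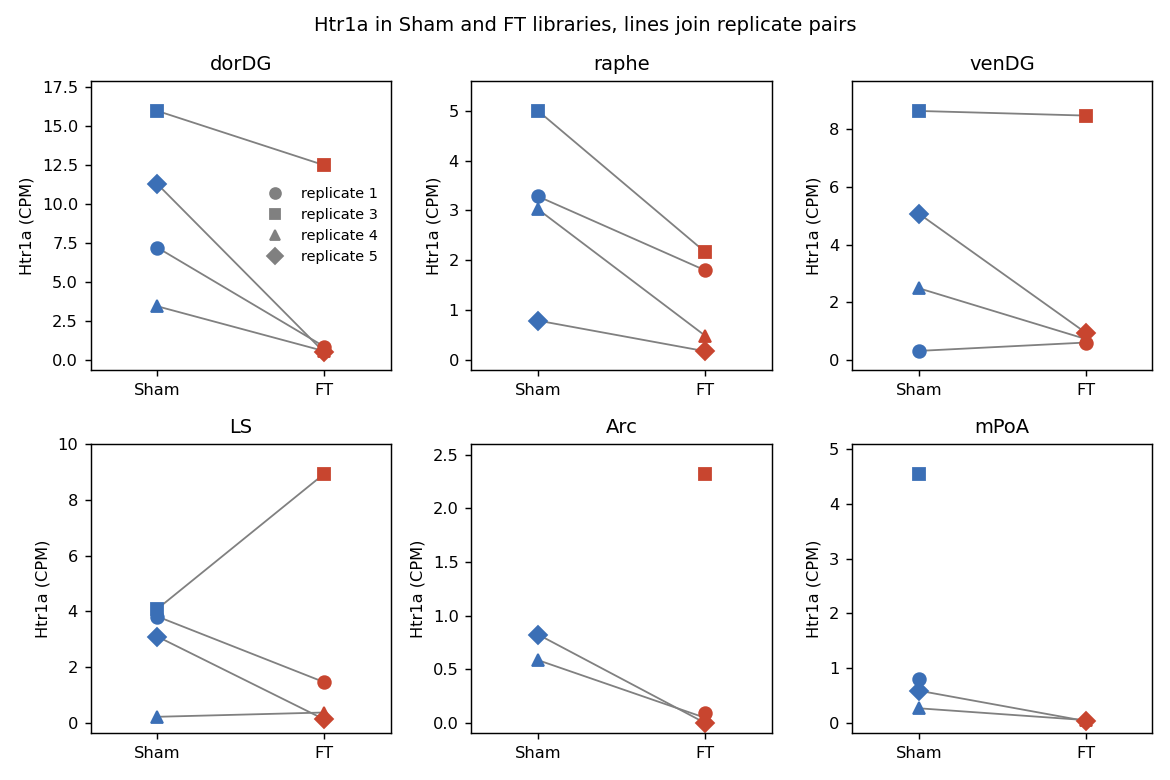
Htr1a in CPM in each Sham (blue) and FT (red) library of 6 regions, with a line for each replicate pair and a y axis of its own for each region. All lines fall in dorDG, raphe, Arc and mPoA, while in LS 2 of 4 rise, and replicate 3 stays high in FT in dorDG, venDG and LS.

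In FT the highest region differed between replicates. The dorDG mean was 3.61 ± 5.92 CPM and ranked highest through replicate 3 alone, while the raphe ranked highest in replicate 1 and the venDG in replicates 4 and 5.

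The raphe showed the fall in every pair. Replicate 1 went from 3.28 CPM in Sham to 1.80 in FT, replicate 3 from 4.99 to 2.17, replicate 4 from 3.02 to 0.493 and replicate 5 from 0.793 to 0.181. In reads these pairs were 57 and 28, 20 and 5, 36 and 4, and 10 and 2. The groups overlapped, because the Sham value of replicate 5 lay under the FT values of replicates 1 and 3. The log2FC was -1.57 (SE 0.44, adjusted p = 0.0931), where edgeR called 3.51% of transcripts lower and 1.34% had a log2FC as low or lower. A fall in every pair was seen for 13.8% of them. DESeq2 gave a log2FC of -1.62 (adjusted p = 0.0719) and called 4.89% of transcripts lower. The call did not hold without the replicate term (adjusted p = 1.00), nor without replicate 3 (0.118), 4 (0.376) or 5 (0.191), and without replicate 1 the transcript fell below the low-count filter.

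Other genes changed in the raphe beside it, where 6.6% of transcripts were called in either direction. Nr3c2, the mineralocorticoid receptor, fell from 4.22 ± 1.32 to 0.942 ± 0.642 CPM (log2FC -2.52, SE 0.59, adjusted p = 0.0665). Of the neuronal markers with an identifier, Gad2, which makes GABA, was called lower (log2FC -0.84, adjusted p = 0.0856), Nrgn was called higher (0.82, adjusted p = 0.0866), and Slc17a6 and Camk2a were not called. Th was called lower with a log2FC of -1.92 (SE 0.34, adjusted p = 0.0473). The summed level of Th and Slc6a3 in the raphe differed widely between pools, at 190.5 CPM in Sham and 35.9 in FT in replicate 1, and 141.6 and 22.6 in replicate 3. In replicate 4 the sums were 3.02 and 2.34 and in replicate 5 they were 7.06 and 2.08. The astrocyte genes Kcnj10 and Slc6a11 were also called lower (log2FC -2.62 and -1.40), and the other 3 of 5 astrocyte markers were not. The sum of the 2 oligodendrocyte markers went from 96.9 to 90.6 CPM, from 104.9 to 76.4, from 60.8 to 128.7 and from 47.3 to 105.4 in replicates 1, 3, 4 and 5, without a call. The 4 interneuron and 2 microglial markers were not called either, nor was Wfs1, which was lower in FT in 4 of 4 pairs. Whether the cell make-up of the punches had a part in the Htr1a values was not tested.

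In dorDG the FT libraries held 67 Htr1a reads in all and the Sham libraries 603. Replicate 1 went from 7.21 CPM in Sham to 0.871 in FT, replicate 4 from 3.45 to 0.582 and replicate 5 from 11.28 to 0.499. Each of these 3 FT libraries held 10 Htr1a reads, against 94, 158 and 294 in the Sham partner. Replicate 3 differed from them, with 15.97 CPM in Sham and 12.49 in FT, from 57 and 37 reads. That FT value lay above 3 of the 4 Sham values, so the groups overlapped through 1 library.

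The edgeR fit in dorDG gave a log2FC of -2.56 (SE 0.56) with an unadjusted p of 0.000886 and an adjusted p of 0.221, and it called 0% of the 13142 transcripts lower there. At an unadjusted p under 0.05 it found 13.4% of them, and 0.0989% had a log2FC as low as that of Htr1a or lower. A fall in all 4 pairs was shared by 7.69%. DESeq2 gave -2.63 with an adjusted p of 0.000980 and called 1.59% lower, and edgeR without the low-count filter gave -2.57 with an adjusted p of 0.000324. Without replicate 3 the log2FC was -3.45 (adjusted p = 0.0216). With no transcript called in dorDG, no cell type marker could be judged by a call. By pair, the sum of the oligodendrocyte markers Sox10 and Olig2 was higher in FT in 4 of 4, at 30.001 CPM in Sham and 36.4 in FT in replicate 1, 27.5 and 30.05 in replicate 3, 13.7 and 24.7 in replicate 4, and 11.4 and 33.2 in replicate 5. This was not particular to dorDG, as the sum was higher in 4 of 4 pairs in venDG, LS and MS too, and in 2 of 4 in raphe. Sox10 and Olig2 had a positive log2FC in 24 of 25 regions each, as did 8.28% of transcripts in at least as many. Wfs1, taken as a gene of CA1 pyramidal cells, was higher in 4 of 4 dorDG pairs as well, at 41.6 and 43.8, 66.1 and 76.6, 10.1 and 16.9, and 9.21 and 38.7 CPM. Its Sham mean was highest in BLA, at 147.8 CPM, and dorDG ranked 11th at 31.8, so it does not mark CA1 alone in these samples. In MS it was also higher in FT in 4 of 4 pairs. The pairs did not keep one order. In dorDG replicate 5, where Htr1a fell most, the oligodendrocyte sum and Wfs1 had their largest rise. In replicate 1, however, Htr1a fell more than in replicate 4 (log2 ratios of -2.86 and -2.31), while that sum and Wfs1 rose less. The 4 neuronal markers went both ways, with log2FC of 0.64 for Nrgn, 0.70 for Slc17a6, -0.92 for Camk2a and -0.54 for Gad2. The part of these shifts in the Htr1a values was not tested.

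In venDG the pairs were mixed. Replicates 4 and 5 fell from 2.49 to 0.735 CPM and from 5.08 to 0.954. Replicate 3 stayed level at 8.63 and 8.47 CPM, and replicate 1 went from 0.323 to 0.613 on 3 and 10 reads. The log2FC was -1.08 (SE 0.52, adjusted p = 0.441), edgeR called 0% of transcripts lower, and 0.994% had a log2FC as low or lower. The change in dorDG was more negative than that in venDG by a log2 difference of -1.44 (SE 0.85, unadjusted p = 0.114, adjusted p = 1.00). A fit with 1 treatment effect per replicate number shared by both regions gave -1.48 (SE 0.50, unadjusted p = 0.0105, adjusted p = 0.797). The log2 ratio was lower in dorDG than in venDG in 4 of 4 replicates, by 3.56, 0.32, 0.73 and 1.90 in replicates 1, 3, 4 and 5. The share of transcripts with such a count was not computed, and the 3.56 rests on the 3 and 10 reads of venDG. Neither fit passed the threshold over all transcripts. Between dorDG and raphe the difference was -0.99 (SE 0.83, unadjusted p = 0.251, adjusted p = 1.00).

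Arc, the arcuate nucleus, and mPoA had the most negative fitted changes, but each rests on 2 pairs and a few reads. In Arc, Sham replicates 4 and 5 had 0.585 and 0.824 CPM from 10 and 20 reads, and the FT partners had 0.0481 and 0 from 1 and 0 reads. FT replicates 1 and 3 of Arc, at 0.0891 and 2.32 CPM, have no Sham partner, and the latter exceeds both Sham values. The log2FC was -4.23 (SE 0.93, adjusted p = 0.0389), where 10.8% of transcripts were called lower and 0.0553% had a log2FC as low or lower. The FT to Sham ratio of the paired reads, scaled to library sizes with TMM factors, was 0.0397 (95% counting interval 0.000972 to 0.239). The call rests on the replicate term, without which the log2FC was -1.25 (adjusted p = 0.768), yet same-numbered FT and Sham libraries of Arc did not deviate together over transcripts (r = -0.0880). In addition, without FT replicate 3 the transcript fell below the filter.

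In mPoA the 2 FT libraries had 1 read each, at 0.0518 and 0.0346 CPM. Htr1a therefore passed the low-count filter there through Sham libraries alone, so a fall was favoured in advance. The Sham libraries had 17, 19, 7 and 11 reads, at 0.800, 4.55, 0.268 and 0.589 CPM, so the groups did not overlap, which was also true of 10.2% of transcripts there. The log2FC was -3.23 (SE 1.14, adjusted p = 0.0765), with 4.74% of transcripts called lower and 0.155% with a log2FC as low or lower. The FT to Sham ratio of the paired reads, scaled in the same way, was 0.103 (95% counting interval 0.0116 to 0.431). Same-numbered libraries of mPoA deviated together only weakly (r = 0.126). The mPoA call was lost without the replicate term (adjusted p = 0.426) and with library sizes that leave out the 50 most abundant transcripts (adjusted p = 0.124).

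In the septum and the extended amygdala the pairs did not point one way. In LS, replicates 1 and 5 fell from 3.82 to 1.46 CPM and from 3.10 to 0.124, while replicates 3 and 4 went from 4.09 to 8.94 and from 0.221 to 0.374. The LS log2FC was -1.05 (SE 0.70, adjusted p = 0.771), and ran from -0.08 without replicate 5 to -1.80 without replicate 3. In MS the pairs were 1.199 and 1.72, 6.25 and 5.62, 0.263 and 0.374, and 1.79 and 0.205 CPM for replicates 1, 3, 4 and 5, with a log2FC of -0.53 (SE 0.58, adjusted p = 0.649). BNST, the bed nucleus of the stria terminalis, was the tested region with a positive value. It went from 1 to 25 reads in replicate 1 and from 6 to 14 in replicate 3, stayed at 1 in replicate 4 and went from 10 to 1 in replicate 5, with a log2FC of 0.88 (SE 0.97, adjusted p = 0.728). In CMA the log2FC was -1.40 (SE 0.62, adjusted p = 0.447), from 7, 13, 16 and 44 Sham reads to 7, 8, 5 and 2 FT reads. In LS 0.029% of transcripts were called lower, in MS 0.0226%, in BNST 0.0589% and in CMA 0%.

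In the other 16 regions Htr1a did not pass the filter, which asks for enough reads in as many libraries as the smaller group holds. That number is 2 in Arc and mPoA and 4 in most regions, so the filter was easier to pass in Arc and mPoA. PAG, with 70 Sham and 10 FT reads in all, was left out, while Arc, with 30 and 8, was tested. When all transcripts with a read were tested, the log2FC was negative in 23 of 25 regions, with BNST and LC as the exceptions, and 8.56% of transcripts were negative in at least as many. Htr1a was then called lower in 5 regions. These were raphe, Arc, mPoA and dorDG, and in addition PAG, where the log2FC was -2.68 (SE 0.79, adjusted p = 0.0274). PAG went from 11 to 8, from 9 to 1 and from 50 to 1 reads in replicates 1, 4 and 5, with 0 in both libraries of replicate 3. With no filter the share of transcripts called lower was 4.99% in raphe, 6.77% in Arc, 2.93% in mPoA, 1.97% in dorDG and 1.76% in PAG. InsularC was lower in FT in 4 of 4 pairs by CPM, as were 9.52% of transcripts tested there, but its replicate 3 had 8 reads in each library.

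**Figure D3:**
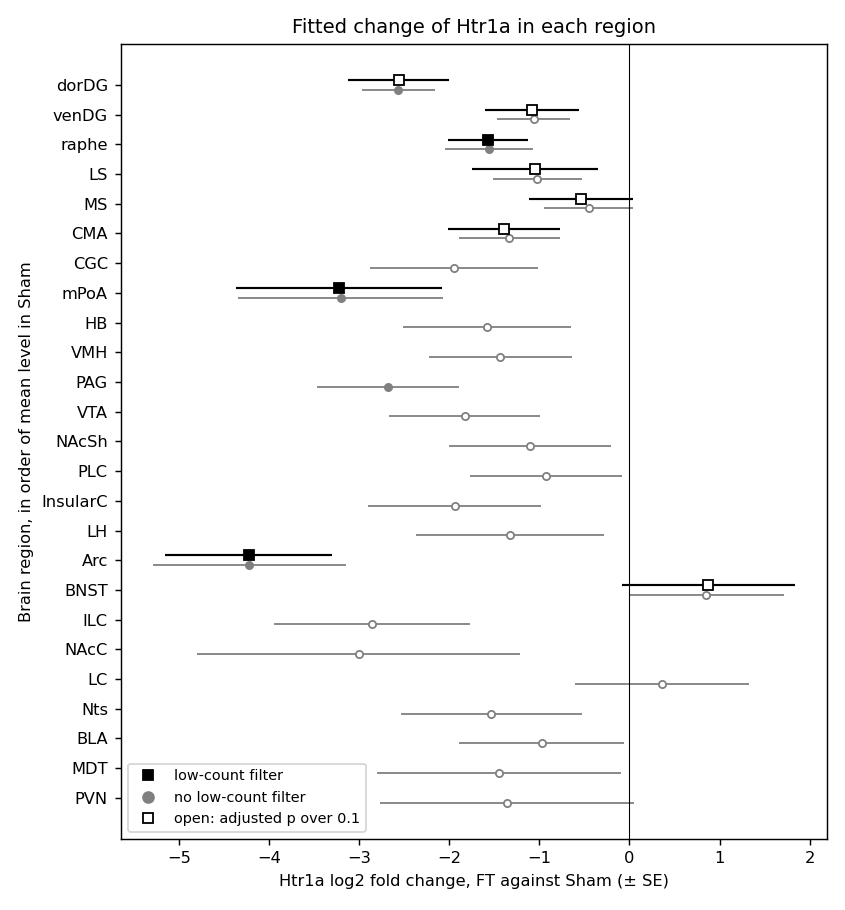
Fitted log2FC of Htr1a, FT against Sham, with its SE, in each region; black squares are fits with the low-count filter, grey circles fits without it, and filled markers have an adjusted p of at most 0.1. Values range from -4.23 in Arc to 0.88 in BNST in the filtered fits, and dorDG and PAG are filled only without the filter.

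The size of the fall varied with the replicate number. In replicate 5 Htr1a was lower in FT in 25 of 25 regions, and in replicate 4 in 20 of 25. In replicate 3 it was lower in 14 of 23 regions and higher in 7, and in replicate 1 lower in 10 of 22 and higher in 12. The 7 include ILC and Nts, whose Sham libraries could not show the transcript at their depth. Over all regions with a pair, the reads summed to 50 in FT and 876 in Sham in replicate 5, and to 73 and 375 in replicate 4. In replicate 3 they were 201 and 227, and in replicate 1 they were 191 and 311. The total counts of these FT libraries were 88.9%, 82.9%, 124% and 79.4% of the Sham ones in replicates 5, 4, 3 and 1.

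**Figure D4:**
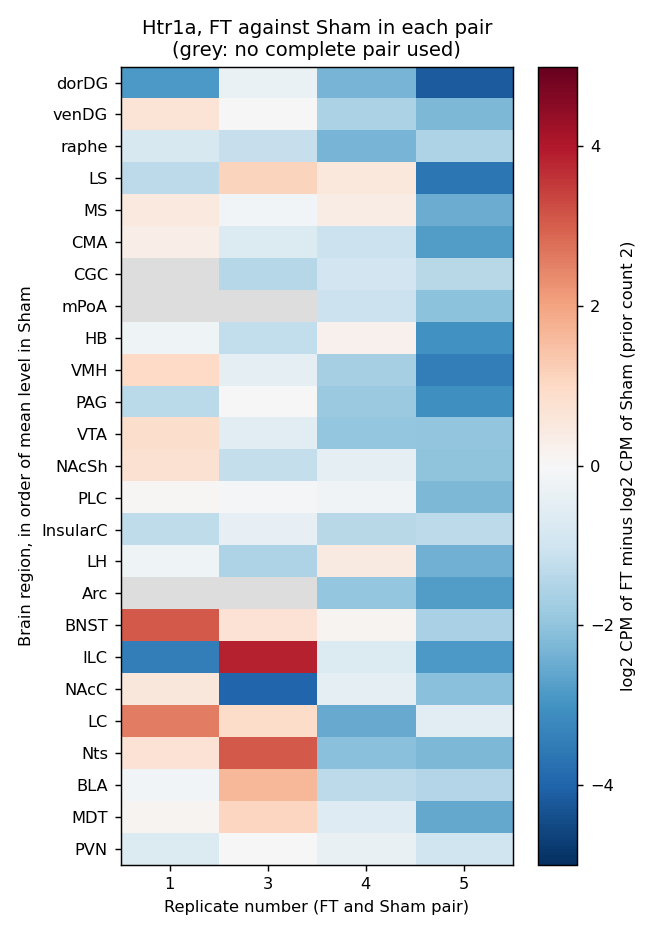
log2 CPM of FT minus log2 CPM of Sham for Htr1a in each pair, with a prior count of 2; rows are regions in order of the mean Sham level, columns are replicate numbers, blue is lower in FT and grey marks pairs that were missing or left out. The column of replicate 5 is blue in all 25 regions, and that of replicate 1 is mixed; the strong red of ILC and Nts in replicate 3 rests on the 2 shallow Sham libraries.

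Many transcripts shared this pattern in part. Of 17302 transcripts, 7.17% were lower in as many regions in replicate 5, 19% in replicate 4, 18.3% in replicate 3 and 60.1% in replicate 1. In replicates 4 and 5 together Htr1a was lower in 45 of 50 pairs, and 9% of transcripts were lower in at least as many. The mean log2 ratio of Htr1a over regions was -0.05 in replicate 1, -0.03 in replicate 3, -1.01 in replicate 4 and -2.28 in replicate 5. Its mean over the 4 numbers was -0.84 ± 1.06 (SD), with a p of 0.125 in the exact two-sided sign-flip permutation test, the smallest that 4 values allow. All 4 means were below 0, as for 8.05% of transcripts, and 0.59% had an overall mean as low or lower. The median transcript had a mean of 0.0449.

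The means of replicates 1 and 3 were near 0 over all pairs, and their signs turned with the prior count. Without the ILC and Nts pairs that hold the 2 shallow Sham libraries, the mean of replicate 3 was -0.36. The overall mean was then -0.93 (exact two-sided sign-flip p of 0.125). With a prior count of 0.5 the means were 0.09 and 0.05 there, and -1.51 and -3.32 in replicates 4 and 5. Leaving out dorDG, venDG and raphe changed the 4 means to 0.10, 0.04, -0.87 and -2.23 (exact two-sided sign-flip p of 0.5 for the mean of -0.74). The means of replicates 4 and 5 thus stayed below 0 over the other 22 regions, although BNST, HB, LH, LS and MS were higher in FT in replicate 4. Over the 22 regions, the mean level in replicate 5 was 0.928 CPM in Sham and 0.0612 in FT. The share of reads outside annotated features had medians of 43.1% in FT and 46.9% in Sham in replicate 5, 47.5% and 41.1% in replicate 4, 37.9% and 39.2% in replicate 3, and 21.9% and 25.6% in replicate 1. Its part in the Htr1a values was not tested.

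Among genes that work with the receptor, names were at hand for few. Of 14 serotonin receptors Htr1a alone had an identifier, as did 0 of 13 genes of serotonin synthesis, transport and breakdown, 8 of 27 genes of receptor signalling and 2 of 7 regulators of the Htr1a gene. All names come from a table of transcripts that the study called in these samples, so counts over them are not independent evidence. In Arc, edgeR called 3 of the 8 signalling genes lower, 2 higher and 3 neither, against 24.6% of all transcripts called. The lower were Gnb2, a G protein beta subunit (log2FC -1.49), Kcnj3, a subunit of the potassium channel that the receptor opens (-0.99), and Prkacb, a catalytic subunit of protein kinase A (-1.73). The higher were Gng13, a gamma subunit (0.86), and Rgs10, which speeds the shut-off of inhibitory G proteins (0.80). In mPoA, Gnb2 (-1.64) and Prkacb (-1.02) were called lower and none higher, against 9.59% of transcripts. In the other 23 regions none of the 8 was called, but edgeR called 0.482% of all tests there and no transcript at all in 10 of them.

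Several of these genes had fitted changes of one sign in nearly all regions, most of them without a call, and regions share pools. The shares of transcripts with as long a run of the same sign are given beside them. Adcy1, an adenylyl cyclase of neurons, was negative in 20 of 20 regions, from -2.20 to -0.23, and called in none, where 4.6% of transcripts were negative in all 20. Prkacb was negative in 24 of 25, as were 5.63% of 11365 transcripts in at least as many. Kcnj3, Gnb2 and Rgs20 were negative in 22 of 25 each, against 11.8%. Gnai2, the alpha subunit of an inhibitory G protein, was positive in 23 of 25, against 12.7%, and called in none. In dorDG, Adcy1 had 24.6 ± 10.8 CPM in Sham and 11.6 ± 11.3 in FT (log2FC -1.43, SE 0.33, adjusted p = 0.234), and Kcnj3 had 34.4 ± 11.9 and 23.2 ± 5.50 CPM (-0.57, SE 0.24, adjusted p = 0.327). Of the regulators, Nr3c2 was negative in 25 of 25 regions, against 2.89% of transcripts, and called lower in Arc and raphe. Deaf1, a transcription factor that binds the Htr1a promoter, was positive in 23 of 25, against 12.7%, and called higher in Arc (log2FC 1.00).

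Markers of other cell types were called mostly in Arc and mPoA, the regions where many transcripts were. The interneuron genes Sst, Pvalb and Cck were called higher in Arc and Vip lower in mPoA. Of the astrocyte genes, Gja1 was called lower in Arc, Kcnj10 and Slc6a11 lower in Arc, mPoA and raphe, and Slc7a10 higher in Arc and mPoA, with Apoe called in no region. Sox10 was called higher in Arc and mPoA and Olig2 higher in Arc. The microglial gene Cx3cr1 was called lower in Arc and C1qa in none. Wfs1 was called lower in Arc and mPoA, Camk2a lower in mPoA, Gad2 lower in Arc as in raphe, and Th and Slc6a3 lower in Arc. Endothelial genes had 0 of 2 identifiers. The part of these in the Htr1a values of Arc and mPoA was not tested.

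Nr3c2 was also the named transcript whose Sham level across the 25 regions was most like that of Htr1a, among 1844 compared. Its Pearson r over region means was 0.720, or 0.552 without dorDG. Kit had an r of 0.697, Smpd2 0.697, Lmo2 0.693 and Fyn 0.656. These are descriptions over 25 means that share libraries and replicate numbers. For the log2FC over the 9 regions where Htr1a was tested, Gtf3c6 had an r of 0.984, Tmem63c 0.983, Foxj3 0.968, Ddx49 0.967 and Mpdu1 0.966 among 1785 transcripts, with Arc and mPoA at one end of the range.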

How the data were processed

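Brain punches of 25 regions were sequenced in 196 libraries. The authors deposited whole-number counts per Ensembl transcript, made with STAR on rn5 and HTSeq from stranded paired-end reads, with no normalization. Transcript names came from the study's name table (1989 transcripts, 1845 with a symbol). The member and the gene lists were chosen with earlier results of these data known. Groups and replicate numbers were read from the sample labels. The CA1 regions were not analysed here. For 8 samples the labels report corrupted raw files; their counts were used as deposited.

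The FT effect was estimated region by region in R 4.3.3 with edgeR 4.0.16 (TMM factors, filterByExpr with a minimum count of 10 and total of 15, replicate number as a block, quasi-likelihood test). Calls required a 1.25-fold change and, after Benjamini-Hochberg adjustment over all transcripts tested, a p no higher than 0.1. SE was derived as the size of log2FC over the root of F. The pairing rests on the parallel processing that the methods describe, and FT and Sham deviations of one number correlated in every pair over 0.1 in 24 of 25 regions (median r 0.654), the exception being Arc (r = -0.0880), with mPoA lowest of the others (0.126). Sham libraries were fitted jointly across regions with the same block, and differences between regions in the FT change as an interaction, with blocks per region and replicate. Log ratios used a prior count of 2. Counting intervals (exact binomial, 95%) and the floor of 3 reads cover counting error only, since reads are not independent molecules. The depth, 4586 to 50893913 counts, limits precision for a transcript with few reads. P-values of the fits with the replicate term rest on the spread between pools that is left after that term. For FT against Sham this is the spread of the FT to Sham difference over replicate pairs. The edgeR fit estimates it for each transcript with the help of the others. In Arc and mPoA only 2 pairs inform that spread, so the p-values there rest mostly on the spread of other transcripts.

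Alternatives were DESeq2 1.42.0, no block, median-ratio size factors, no filter, an adjusted p of 0.05, library sizes without the 50 most abundant transcripts, all 8 CGC samples, the 2 shallowest libraries left out, and each replicate left out. The edgeR fit was tested on simulated data with complete pairs, where the changed transcripts had more reads than Htr1a has in most libraries. That test therefore does not cover a transcript with so few reads, nor the incomplete pairs of Arc and mPoA. Named genes were Htr1a, all list members with an identifier, the 5 transcripts most like it in Sham level and in log2FC, and markers where a result turned on them. Python 3.11.15, pandas 2.3.3 and matplotlib 3.10.9 made summaries and figures.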

Additional observations from a re-analysis of the deposited data

Results flagged for a closer look

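In 46 groups of 4 libraries, the highest Htr1a value stood far from the others in 17, where the rule is built to mark about 1 group in 20 by chance if the values are independent and normal. These groups share replicate numbers and rest on few reads, and their chance rate was not measured. In 14 of the 17 the library was replicate 3, and 14 of the 17 were FT groups. On a scale of total counts without TMM factors 11 groups were marked. In the dentate gyrus and septum the FT values of replicate 3 were 12.5 CPM in dorDG (the others 0.499 to 0.871), 8.47 in venDG and 8.94 in LS. In the remaining FT groups replicate 3 had 2.32 CPM in Arc, 1.28 in BLA, 1.204 in HB, 1.89 in ILC, 1.67 in InsularC, 0.706 in MDT, 2.00 in PLC and 1.56 in VTA, from 2 to 9 reads each. In Sham, replicate 3 stood out at 2.30 CPM in InsularC, 2.81 in NAcSh and 4.55 in mPoA. FT replicate 1 stood out at 0.0684 CPM in NAcC (1 read, the others at 0), 0.609 in PAG and 0.411 in PVN.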

How the results depend on the processing

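The number of regions in which Htr1a was called lower, 3, became 0 with no replicate block, 5 with no low-count filter, 1 at an adjusted p of 0.05 and 0 to 2 when a replicate was left out (0 without replicate 4 or 5). The raphe (log2FC -1.57) was lost with no replicate block (-1.53), at an adjusted p of 0.05, and without replicate 3, 4 or 5 (-1.70 to -1.25). The mPoA (-3.23) was lost with no replicate block (-4.91), without the 50 most abundant transcripts in the library sizes (-3.40) and at 0.05, and the Arc was lost with no replicate block (-1.25). The dorDG passed with no filter (-2.57), with DESeq2 (-2.63) and without replicate 3 (-3.45), and ranged from -3.45 to -1.92 with a replicate left out. The MS change turned positive without replicate 5 (0.14, against -0.93 without replicate 1), and the difference between dorDG and raphe with no replicate block (0.0185). The count of regions lower than the raphe in Sham, 16, was 0 with no replicate block and 9 to 16 with a replicate left out, in alternatives chosen after seeing the data. The test of region in Sham passed in 9 of 9 alternatives (adjusted p up to 0.00158), and no neighbouring pair was called in 8 of 8. With a replicate left out, the venDG ranged from -1.49 to -0.61, the LS from -1.80 to -0.08 and the BNST from 0.86 to 1.87 (without replicate 4 or 5). The cause of these shifts was not tested. Leaving out a replicate also leaves fewer libraries, and the part of that was not separated. Htr1a fell below the filter in raphe without replicate 1, in BNST without replicate 1 or 3, in CMA without replicate 5 and in Arc without replicate 3. In CGC it did not pass the filter with all 8 samples, as in the main fit. Arc and mPoA without replicate 4 or 5 could not be fitted. DESeq2 gave no adjusted p outside dorDG and raphe.

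Few reads are the main limit, with under 10 in 137 of 196 libraries.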
